A study of Danio rerio with 18 samples.

Results

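The transcripts described here were those whose level in whole zebrafish (Danio rerio) embryos was higher with all-trans retinoic acid (atRA) at each of the 3 stages sampled. They were chosen by measured values: in each library the count of a transcript was scaled to counts per 1000000 transcript counts of that library (CPM), and at each stage d was the log2 ratio of the mean atRA CPM plus 0.5 to the mean control CPM plus 0.5. A transcript was a member where d was at least 1 at all 3 stages, a condition that 65 of 58549 transcript IDs met. The atRA differences at each stage are therefore given as descriptions, since the choice of members fixes their direction and smallest size. The control means are the denominators of d, so a low control level favours membership, and tests of the members between stages describe these 65 transcripts and are not independent of their choice. Members carry numbers from 1 to 65 in order of their smallest d, number 1 being the member whose smallest d was largest.

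All embryos were wild type and were kept at 28 °C, and RNA was taken from the whole embryo as total RNA. Controls received DMSO, the solvent, and treated embryos received 0.1 µM atRA. Embryos collected at 80% epiboly, when the cell sheet covers most of the yolk, were exposed from 30% epiboly on. The embryos of the later 2 stages, 12 somites and 24 hours after fertilisation (24 hpf), were exposed from 80% epiboly on, so the onset differs between the first stage and the later ones and cannot be told apart from stage. Each of the 6 groups held 3 libraries. The labels do not say whether replicates came from separate clutches, so p-values measure the spread between these libraries, which may be technical. In whole embryos, more cells of a type and more RNA per cell cannot be told apart.

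Retinoic acid is made from vitamin A by aldehyde dehydrogenases and is broken down by enzymes of the Cyp26 family. It binds nuclear retinoic acid receptors, which sit as dimers with retinoid X receptors on DNA response elements of target genes and switch from repressing to activating transcription when the ligand is bound. In vertebrate embryos it takes part in patterning along the head-to-tail axis, including the activation of Hox genes in the hindbrain and trunk, and genes for its own breakdown and storage are known to respond to it. The files pair no transcript ID with a gene, and 0 of the IDs were found in the table of gene names used here. No member is therefore tied to a gene, and its role is not given.

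Counts assigned to transcripts ranged from 80522765 to 115511468 per library at 80% epiboly, from 77807705 to 88004323 at 12 somites and from 38673189 to 72734557 at 24 hpf. The atRA libraries were shallower than the controls without overlap at 12 somites and at 24 hpf. The common biological coefficient of variation estimated by edgeR in the atRA comparison was 0.202 at 24 hpf, against 0.0774 at 80% epiboly and 0.0490 at 12 somites. The spread was thus largest at 24 hpf, where counts of calls moved most when a library was left out.

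The members made up a small share of what atRA raised at any single stage. A d of at least 1 was reached at 80% epiboly by 638 transcripts, at 12 somites by 477 and at 24 hpf by 291, of which the 65 members were 10.2%, 13.6% and 22.3%. A further 101 transcripts met the threshold at 80% epiboly and 12 somites but not at 24 hpf, 55 met it at the later 2 stages but not at 80% epiboly, and 16 met it at 80% epiboly and 24 hpf but not at 12 somites. The members just inside the threshold had a smallest d of 1.01, 1.04 and 1.07, and the transcripts just outside had 0.995, 0.990 and 0.981. In all, 14 members had a smallest d under 1.1, 15 other transcripts had one from 0.9 to 1, and 9 members had one of at least 2.

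The levels of the members covered more than 4 orders of magnitude in the 80% epiboly controls, from a mean of 0.00927 CPM to 233 CPM with a median of 1.06 CPM. In atRA libraries of that stage the median was 8.81 CPM. At 12 somites the median of the members was 8.34 CPM in controls and 32.6 CPM with atRA, and at 24 hpf it was 6.68 CPM and 29.4 CPM. In untreated gastrulae 32 of 65 members had a control mean under 1 CPM, against 4 at 12 somites and 3 at 24 hpf. At this depth most of them were still counted: 13 members had under 10 counts in some 80% epiboly control library, and 2 had at most 3 counts in all of them. The share of all transcripts under 1 CPM was not computed, so these counts are not read as a trait of the members. A mean of at least 50 counts in the 80% epiboly controls was reached by 37 of 65 members and by 29529 of all 58549 transcripts. Summed over all 65 members, the 80% epiboly controls held 902 ± 31.8 CPM (SD, n = 3) and the atRA libraries a mean of 3223 CPM. The sums were 919 and 4287 CPM at 12 somites, and 765 and 3253 CPM at 24 hpf. The 24 hpf atRA libraries differed most in this sum, from 2966 to 3516 CPM. In the 80% epiboly controls a few abundant members weigh most in the sum, as members 18, 19 and 15 had means of 233, 120 and 98.2 CPM. Members with near-identical counts were summed separately.

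**Figure D1:**
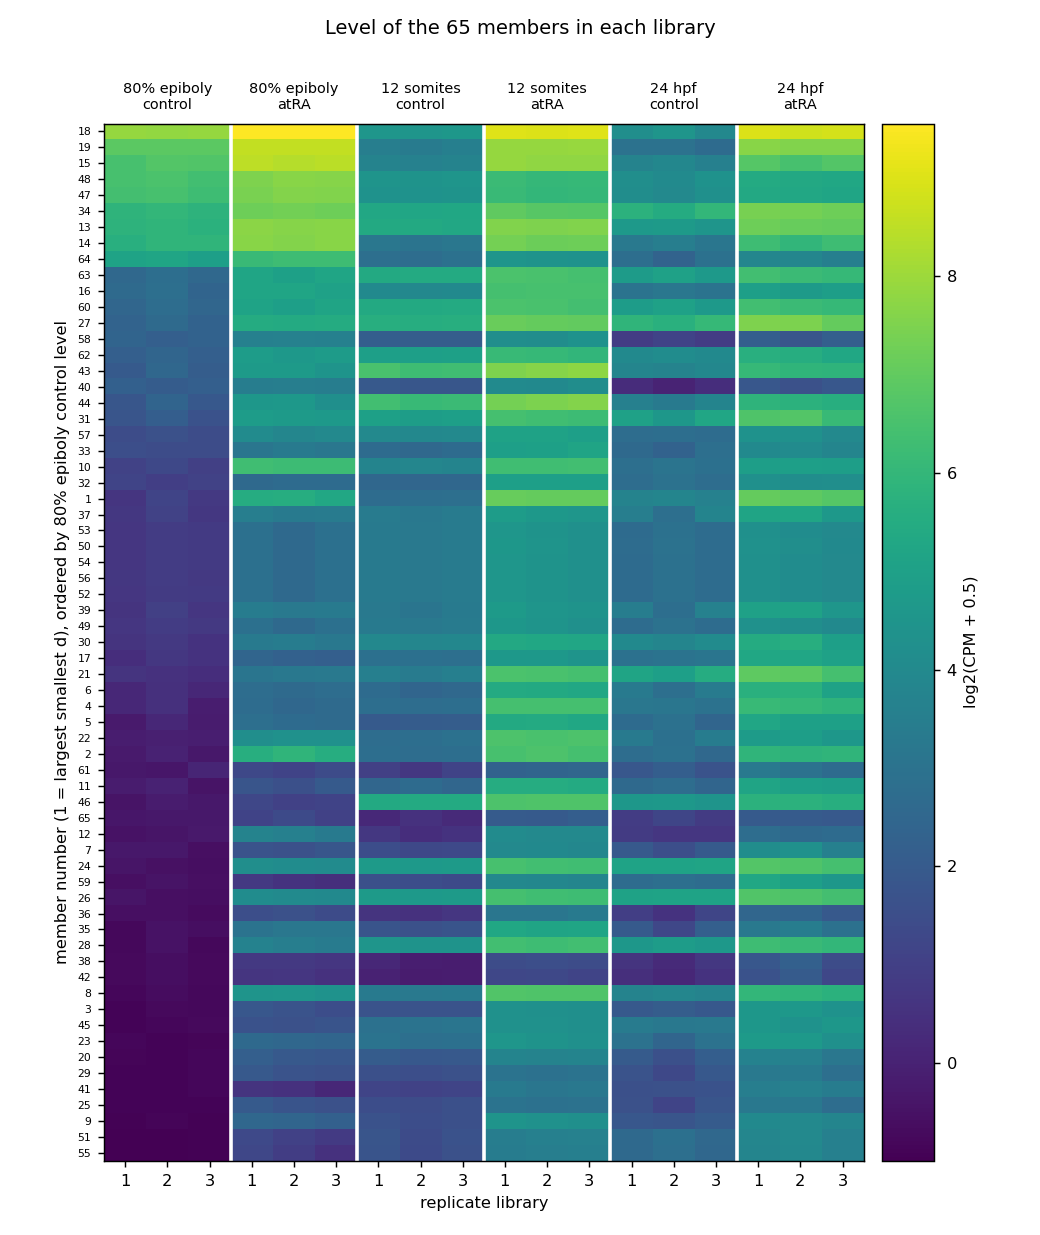
Level of the 65 members in each of the 18 libraries, as log2(CPM + 0.5) on a colour scale from dark (low) to yellow (high). Each row is a member, ordered by its mean in the 80% epiboly controls, and each column is a library grouped by stage and treatment. The 3 columns to the right of each control block are brighter in all rows, and the lower rows of the 80% epiboly controls are the darkest part of the plot.

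Across stages d was largest at 80% epiboly for 37 members, at 12 somites for 24 and at 24 hpf for 4. The median d was 2.43 at 80% epiboly (range 1.09 to 5.90), 1.74 at 12 somites (1.07 to 4.47) and 1.52 at 24 hpf (1.01 to 4.72). As ratios of mean CPM, with no pseudocount, the medians were 7.99-fold, 4.34-fold and 3.05-fold, and the largest ratio was at 80% epiboly for 48 members, at 12 somites for 13 and at 24 hpf for 4. Over all transcripts with a mean of at least 10 counts, the median d was 0.05, -0.02 and -0.08 at these stages. The added 0.5 CPM lowers d most where the control is low, so d at 80% epiboly understates the ratio of members with few counts.

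**Figure D2:**
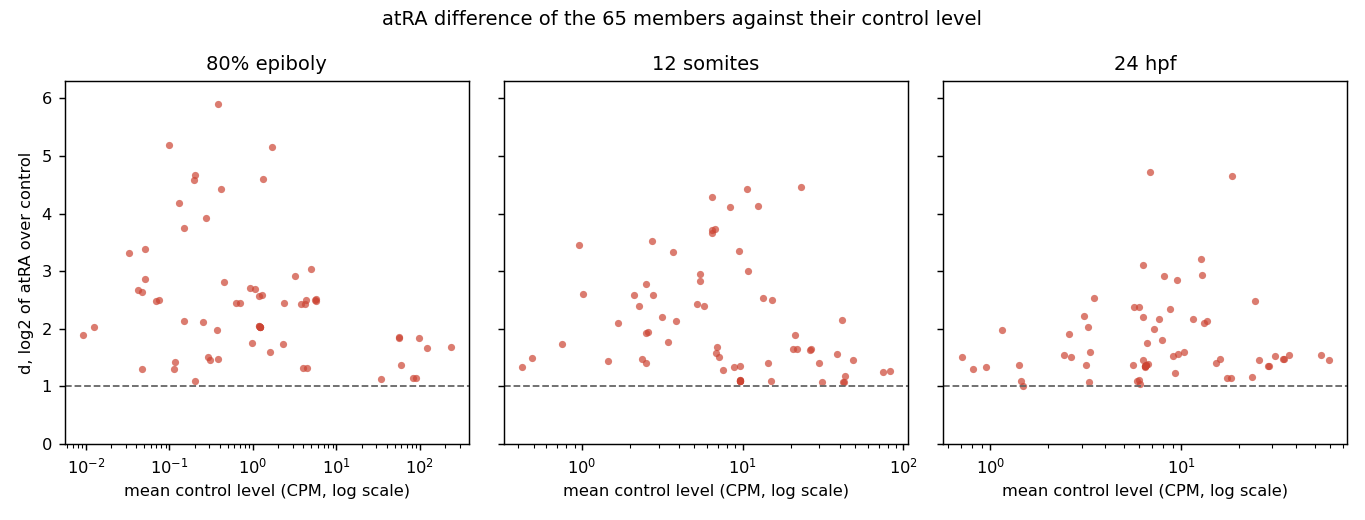
Difference with atRA (d, log2 scale with 0.5 CPM added) against the mean control level in CPM on a log axis, for the 65 members at each stage. Each point is a member and the dashed line is the threshold of 1. Points reach 5.90 at 80% epiboly and 4.72 at 24 hpf. The median control level is lower at 80% epiboly (1.06 CPM) than at 12 somites (8.34 CPM) and 24 hpf (6.68 CPM). The highest control level is also at 80% epiboly, at 233 CPM against 82.3 and 59.5 CPM.

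At each stage every atRA library lay above every control library for 65 of 65 members. Over all transcripts this held for 20.1% at 80% epiboly, 16.6% at 12 somites and 9.24% at 24 hpf. The lowest atRA library exceeded the highest control library by a median of 5.97-fold, 3.48-fold and 2.27-fold at these stages, and by at least 1.92-fold, 1.91-fold and 1.48-fold. In edgeR fits over all transcripts, with Benjamini-Hochberg adjusted p under 0.05 as the call, 65 of 65 members were called higher with atRA at each stage. Of all tested transcripts 14.1% were called higher at the first stage, 17.7% at 12 somites and 4.09% at 24 hpf. The last share was 9.77% without replicate 2 of the 24 hpf controls, and between 0.633% and 2.66% without any other library of that stage. Nothing about the members is read from these shares, because the same libraries chose the members.

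The rule was also applied without a replicate number in all 6 groups, and d was measured in the libraries left out. Without replicate 1 the rule chose 67 transcripts, and 60 of them had d of at least 1 at every stage in replicate 1 alone, where 0.123% of all transcripts did. Without replicate 2 it chose 65, of which 58 met the threshold in replicate 2 alone (0.179% of all transcripts). Without replicate 3 it chose 86, of which 35 met it in replicate 3 alone (0.0666% of all transcripts). In that last case d was at least 1 for 82 of the 86 at 80% epiboly, for 72 at 12 somites and for 50 at 24 hpf, where 1.24%, 0.813% and 1.07% of all transcripts reached it in these libraries. At 24 hpf 0.581% of all transcripts had d of at least 1 in replicate 1 alone and 5.27% in replicate 2 alone. All 67 and all 65 of the former sets, and 80 of the 86, had d above 0 at every stage in the libraries left out. Replicate numbers were not found to link libraries between groups, so each of these splits pairs libraries by number only. Of the transcripts chosen in the 3 cases 62, 62 and 63 were members. The libraries left out may be technical replicates of those used, so these counts describe repeatability between libraries and are no independent support.

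Member 1, ENSDART00000076161.4, had the largest smallest d of all. At 80% epiboly it was at 1.07, 1.75 and 1.17 CPM in the controls and at 45.3, 47.0 and 39.8 CPM with atRA. At 12 somites it was at 6.07, 6.50 and 6.69 CPM in controls and at 135, 134 and 134 CPM with atRA. Treated embryos thus held about the same level in all 3 libraries of that stage, far above the controls. At 24 hpf the controls were at 12.7, 13.5 and 11.9 CPM and the atRA libraries at 134, 122 and 110 CPM. The control level rose from stage to stage, by a fitted log2 change of 1.96 (SE 0.14; edgeR adjusted p = 2.38e-08) from 80% epiboly to 12 somites and of 0.99 (SE 0.13; edgeR adjusted p = 0.000615) from there to 24 hpf. The atRA level at 24 hpf was close to that at 12 somites, and the difference between atRA and control narrowed from 33.2-fold at 80% epiboly to 21.0-fold and 9.64-fold. These folds and all CPM rest on library totals, whereas fitted changes here and below use the library scaling of the edgeR fits (TMM). A fitted change between stages can therefore differ from the ratio of the CPM printed beside it.

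Member 2, ENSDART00000066125.4, was low in untreated gastrulae, with 34, 48 and 34 counts in the 3 control libraries. These were 0.342, 0.504 and 0.294 CPM, and the atRA libraries were at 48.5, 59.9 and 47.8 CPM, a 137-fold ratio of means. At 12 somites the controls had reached 6.46, 6.42 and 6.44 CPM, and the atRA libraries were at 89.5, 97.4 and 85.7 CPM. At 24 hpf the values were 6.32, 7.07 and 5.48 CPM in controls and 59.1, 55.5 and 59.0 CPM with atRA. The control level of this member rose by a log2 change of 3.77 (SE 0.15; edgeR adjusted p = 3.4e-11) between the first 2 stages, and no change was called from 12 somites to 24 hpf (-0.03, SE 0.16; edgeR adjusted p = 0.90).

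Other members had shapes unlike these, and 4 chosen for their shape after their values were seen are described by number. Member 18, the most abundant, was high in untreated gastrulae and fell there later. Its controls were at 236, 228 and 234 CPM at 80% epiboly, at 23.1, 22.5 and 23.7 CPM at 12 somites and at 18.2, 22.2 and 14.9 CPM at 24 hpf. Its atRA libraries were at 748, 742 and 753 CPM, then at 528, 519 and 520 CPM, and at 511, 440 and 471 CPM at 24 hpf. With atRA this member thus stayed at a level of the same order through all stages. In controls it fell by a fitted 3.66 on the log2 scale (SE 0.05, edgeR adjusted p = 2.85e-15) from 80% epiboly to 12 somites. Its d was 1.68 in the gastrula, 4.47 at 12 somites and 4.65 at 24 hpf. Member 19 ran alike, with mean CPM of 120, 10.7 and 6.88 in controls and of 383, 240 and 194 with atRA.

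Member 13 had control levels between those of members 1 and 18 in the gastrula. Its controls were at 55.5, 60.0 and 52.8 CPM at 80% epiboly, 42.0, 42.5 and 39.8 CPM at 12 somites and 24.7, 26.3 and 22 CPM at 24 hpf. Its atRA libraries were at 212, 200 and 206 CPM, 186, 181 and 188 CPM, and 148, 137 and 132 CPM. In both groups the 24 hpf libraries were the lowest, and the groups did not overlap at any stage.

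Member 22 had its highest level with atRA at 12 somites. Its atRA libraries were at 18, 19.9 and 19.9 CPM at 80% epiboly, at 97.5, 90.6 and 97.6 CPM at 12 somites and at 27.6, 29.6 and 23.7 CPM at 24 hpf. Its controls were at 0.402, 0.441 and 0.416 CPM, at 6.37, 6.60 and 7.14 CPM and at 9.80, 7.04 and 10.3 CPM. The difference therefore shrank most after 12 somites, with d of 4.42, 3.73 and 1.53.

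Member 34 had similar values of d at the 3 stages. Its controls were at 57.8, 62.6 and 56.4 CPM at 80% epiboly, 39.5, 37.7 and 38.6 CPM at 12 somites and 54.7, 44.5 and 62.7 CPM at 24 hpf, and its atRA libraries at 151, 159 and 151 CPM, 124, 110 and 110 CPM, and 166, 163 and 149 CPM. Its d was 1.38, 1.56 and 1.55.

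**Figure D3:**
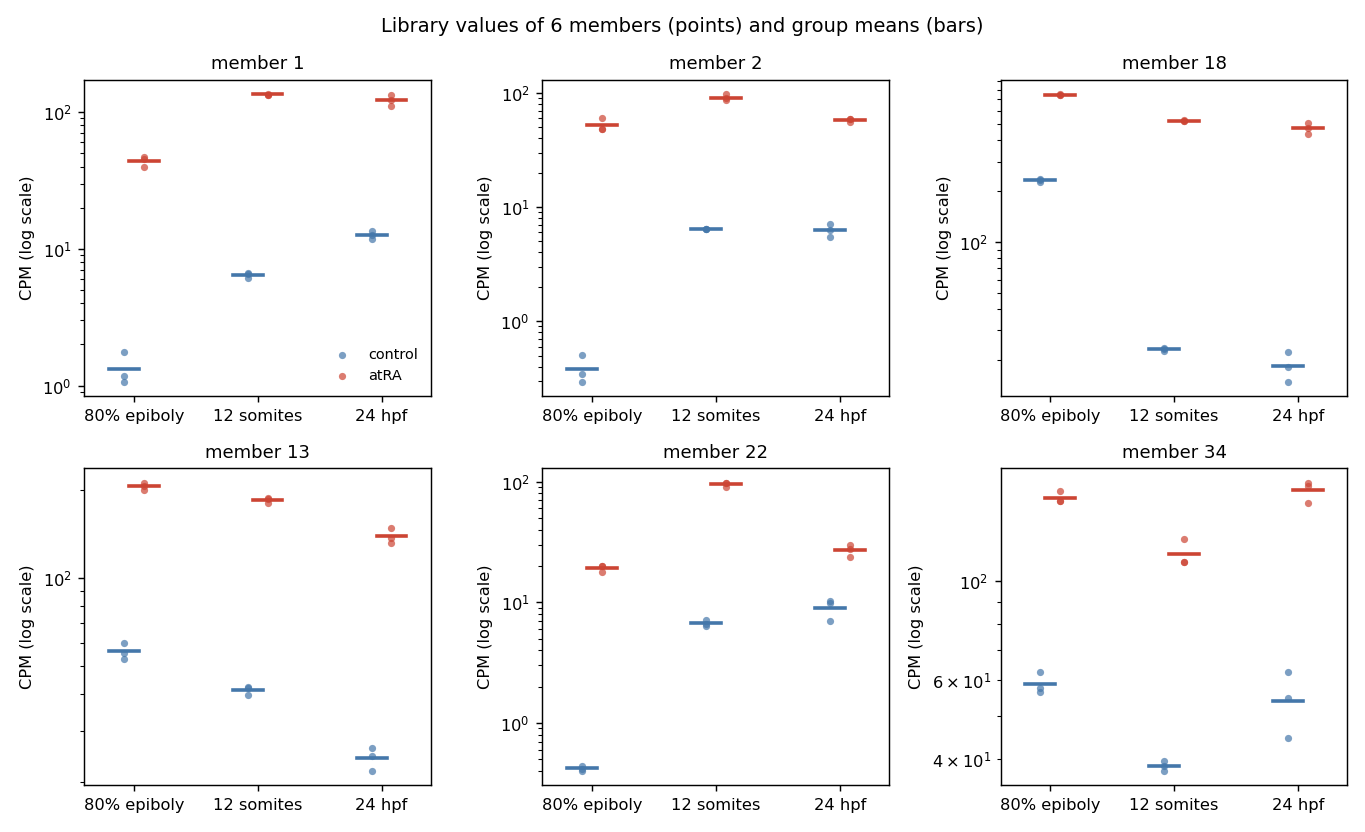
CPM of members 1, 2, 18, 13, 22 and 34 in every library, on log axes that differ between panels. Points are libraries (blue control, red atRA) and horizontal bars are means of 3. In all panels the red points lie above the blue points at each stage. In member 18 the blue means fall from 233 to 23.1 and 18.4 CPM while the red means run from 748 to 522 and 474 CPM.

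Between 80% epiboly and 12 somites the untreated level of most members rose. In the edgeR fit of control libraries, which are also those that entered d, 54 of 65 members were called higher at 12 somites and 11 lower, where 44.3% and 39.9% of all tested transcripts were called in those directions. The median log2 change was 2.67 over the members and 0.08 over all tested transcripts. When libraries were scaled by their totals alone, the median over all transcripts became 0.40, and 54 members were called higher and 10 lower. Of all 41505 transcripts tested, 22270 were then called higher and 12420 lower. Some members, such as 51 and 55, passed the filter on low counts only through the 12 somite libraries and so had to differ. With at least 10 counts required in every library, 52 members remained in the test, 41 higher and 11 lower. Of all 34118 transcripts in that test, 14592 were called higher and 13774 lower.

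The largest fitted rises were 7.53, 7.19, 7.06 and 6.83 on the log2 scale, in members 55, 51, 28 and 46. Member 28 had 8, 21 and 10 counts and member 46 had 24, 36 and 34 counts in the 80% epiboly controls. Member 46 went from 0.241, 0.378 and 0.294 CPM to 42.6, 43.3 and 43.6 CPM in controls. Members 51 and 55 had at most 2 counts in each 80% epiboly control library, so their fitted changes depend on the prior count of the fit. Against a floor of 3 counts per library, their atRA level at 80% epiboly was at least 50.9-fold and at least 44.3-fold higher, a bound that covers counting error only.

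The 11 members that fell included the most abundant ones of untreated gastrulae. Members 19, 18, 15 and 14 fell by a fitted 3.81, 3.66, 3.30 and 3.07 on the log2 scale. Member 15 was at 88.3, 105 and 102 CPM in 80% epiboly controls and at 12.8, 11.9 and 12.7 CPM in 12 somite controls, while its atRA libraries were at 364, 336 and 354 CPM and then at 235, 224 and 225 CPM. Member 14 behaved alike, from 50.2, 59.1 and 59.0 CPM to 8.60, 7.78 and 8.64 CPM in controls. The smallest fall was that of member 58, by a fitted 0.53 on the log2 scale. Its mean CPM in controls went from 4.44 to 3.86, a smaller step, so the size of this fall depends on the scaling of libraries.

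Between 12 somites and 24 hpf the untreated level changed in both directions, and more members were not called. In the edgeR fit 20 of 65 members were called higher at 24 hpf and 21 lower, against 32.3% and 26.7% of all tested transcripts, and 24 were not called. Calls in either direction covered 63.1% of the members, near the 59.0% of all tested transcripts. The number called is therefore not read as particular to the members. Changes ran from -2.70 in member 44 to 1.75 in member 21. Member 21 went from 11.2, 10.1 and 11.2 CPM to 35.1, 30.2 and 45.4 CPM. Member 44 went from 82.8, 68.9 and 71.8 CPM to 11.7, 9.85 and 13 CPM. The number called was 26 without replicate 3 of the 12 somite controls and 26 without replicate 1 of the 24 hpf controls, where 48.3% and 48.9% of all tested transcripts were called in place of 59.0%.

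**Figure D4:**
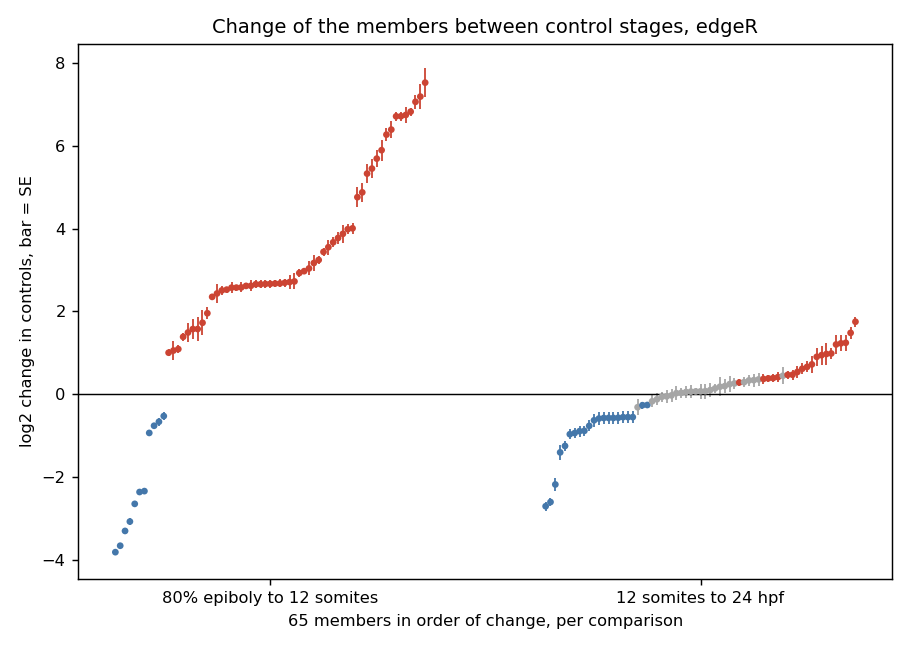
Fitted log2 change of the 65 members between control stages, with bars of 1 SE, in order of change within each comparison. Red points were called higher, blue points lower and grey points not called (edgeR, adjusted p under 0.05). From 80% epiboly to 12 somites 54 points are red and 11 blue, and from 12 somites to 24 hpf 20 are red, 21 blue and 24 grey.

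A stage-by-treatment interaction term, fitted to the 12 libraries of 2 successive stages, tested whether the atRA difference itself changed. The rule sets a minimum for each difference but not for how 2 of them compare. These tests still reuse the libraries that chose the members, and they share control libraries with the comparisons of control stages above, so the counts describe these 65 transcripts only. From 80% epiboly to 12 somites the difference became smaller for 41 members and larger for 14, by edgeR adjusted p, where 15.6% and 12.3% of all tested transcripts were called in those directions. The median change of the log2 difference was -1.22 over the members. With at least 10 counts in every library, 29 of 52 members were called smaller and 14 larger. Of all 33066 transcripts tested in that fit, 5830 were called smaller and 4796 larger.

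The most negative fitted change was -4.99, in member 23, which had 7, 3 and 6 counts in the 80% epiboly controls and left the test when 10 counts were required in every library. Member 2 changed by -3.22 (SE 0.18; edgeR adjusted p = 9.2e-11) and member 1 by -0.60 (SE 0.14; edgeR adjusted p = 0.00384). On the other side, member 18 changed by 2.89 (SE 0.05; edgeR adjusted p = 3.35e-17), member 15 by 2.43 and member 14 by 2.42. In these 3 members the control libraries fell more steeply than the atRA libraries, as the values above show. Members 13 and 34 changed by 0.36 (SE 0.07, edgeR adjusted p = 0.000471) and 0.27 (SE 0.07, edgeR adjusted p = 0.0107). Both changes were small, and that of member 34 would not be called at an adjusted p under 0.01. The ratios of mean CPM at these 2 stages were 3.67 and 4.47 in member 13, and 2.61 and 2.98 in member 34.

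From 12 somites to 24 hpf the change was called for fewer members. The difference became smaller for 21 members and larger for 5, where 7.85% and 8.1% of all tested transcripts were called, and 39 members were not called. Members 22 and 35 had the most negative changes, at -2.17 and -2.16. Member 35 was at 39.1, 35.2 and 36.4 CPM with atRA at 12 somites and at 9.23, 10.7 and 7.09 CPM at 24 hpf, with controls at 2.84, 2.53 and 2.86 CPM and then at 3.52, 1.87 and 4.14 CPM. Member 1 changed by -1.05 (SE 0.14; edgeR adjusted p = 0.000559). Member 2 was at -0.55 (SE 0.19; edgeR adjusted p = 0.0689), and member 34 at 0.07 (SE 0.11; edgeR adjusted p = 0.715).

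The difference grew most in members 44 and 43, by 1.04 and 0.97. Member 43 was at 91.2, 76.2 and 79.4 CPM in 12 somite controls and at 181, 199 and 218 CPM with atRA. At 24 hpf its controls were at 13.6, 12.8 and 14.4 CPM and its atRA libraries at 66.5, 60.1 and 57.1 CPM, so the libraries of both groups lay lower than at 12 somites and the controls lay further below. Replicate 2 of the 24 hpf controls weighs on the count of calls, over the members and over all transcripts: without it 40 members were called, 24 smaller and 16 larger, and the share of all tested transcripts called went from 16% to 29.0% (13.5% smaller and 15.5% larger). On CPM scaled by library totals, that library held the highest control value for 32 members and the lowest for 27. Its scaling factor in TMM was 0.932, against 1.05 and 1.12 for replicates 1 and 3, so these 2 counts depend on the scaling. The share over all transcripts was not computed, and the counts are not read as a trait of the members.

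**Figure D5:**
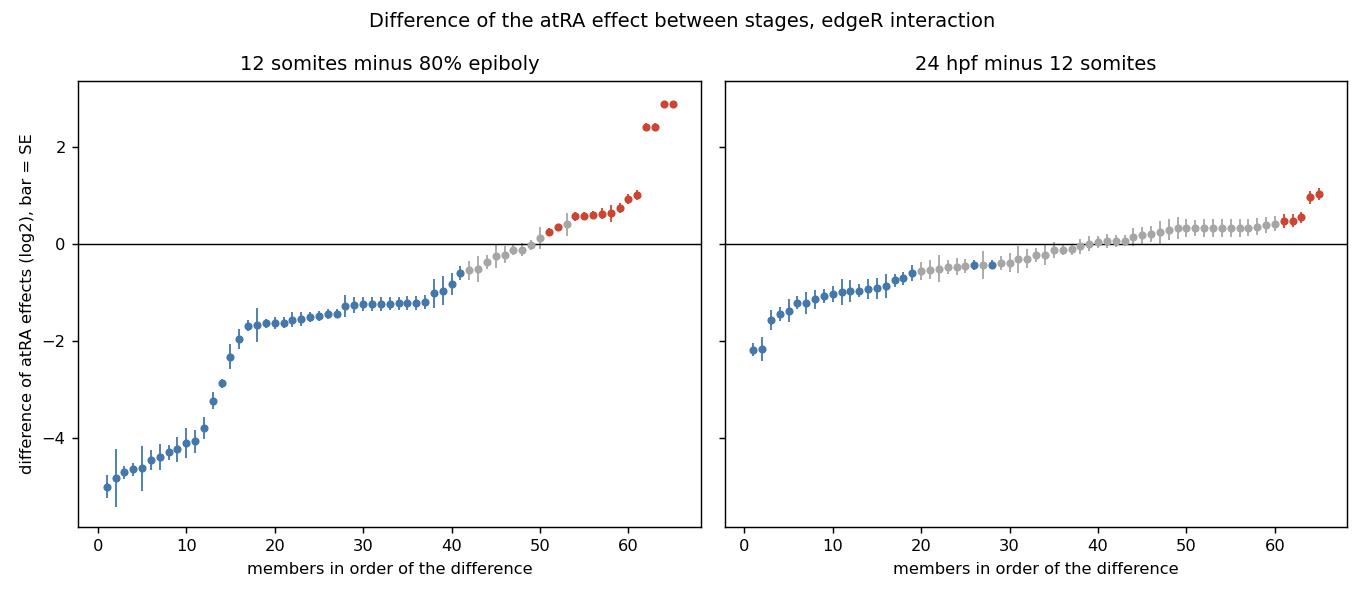
Change of the log2 atRA difference between successive stages for the 65 members, in order of the change, with bars of 1 SE. Red points were called larger at the later stage, blue points smaller and grey points not called (edgeR interaction, adjusted p under 0.05). The left panel holds 41 blue and 14 red points and reaches -4.99, and the right panel holds 21 blue and 5 red points and reaches -2.17.

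Treated and untreated embryos of different stages can be set side by side on the CPM scale, which rests on library totals alone. The scaling matters between stages. From 80% epiboly to 12 somites in controls, the median log2 change over all tested transcripts was 0.40 with library totals and 0.08 in the main edgeR fit. The counts and ratios that follow were not computed with the scaling of the fits. The 80% epiboly atRA libraries lay above all 12 somite controls for 30 members (24.8% of all transcripts), below them for 28 (40.9%), and overlapped for 7. The median ratio of the means was 1.08. The 12 somite atRA libraries lay above all 24 hpf controls for 65 of 65 members (25.4%), with a median ratio of 3.79. Both groups entered the rule, the former as numerator of d at 12 somites and the latter as denominator of d at 24 hpf. The choice of members thus favours this order, and the shares of all transcripts are no measure for the members. The same holds for the 80% epiboly atRA libraries against the 12 somite controls. Among atRA libraries alone, those of 12 somites lay above those of 24 hpf for 33 members (31.0%) and below for 8 (27.5%), and overlapped for 24. The control mean was highest at 24 hpf for 35 members, at 12 somites for 19 and at 80% epiboly for 11, whereas the atRA mean was highest at 12 somites for 33, at 24 hpf for 24 and at 80% epiboly for 8.

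The spread of the members between replicate libraries was larger than that of all transcripts at 80% epiboly. It was smaller in the controls of 12 somites and 24 hpf, and close in the atRA libraries of those stages. Among members with a mean of at least 50 counts, the median coefficient of variation at 80% epiboly was 9.47% in controls and 7.94% with atRA, against 6.98% and 6.21% over all such transcripts. In the 80% epiboly controls only 37 of 65 members had that many counts, so the members with fewest counts are left out. At 12 somites it was 4.40% and 5.03%, against 5.48% and 5.27%, and at 24 hpf 11.8% and 11.1%, against 16.2% and 10.7%. In some libraries many members deviated in the same direction. The share of all transcripts that did so was not computed, these CPM are scaled by library totals alone, and members with near-identical counts are counted separately. The counts that follow are therefore not read as a trait of the members. Replicate 2 of the 80% epiboly controls was the highest of its group for 44 of 65 members, replicate 2 of the 12 somite controls the lowest for 47, and replicate 3 of the 24 hpf atRA group the lowest for 53. All members were measured in the same libraries, so members are not replicates of each other.

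Part of the list is made of near-copies in the counts. For 22 members in 9 groups (8 pairs and a group of 6), the log2 ratio of their CPM had an SD of at most 0.1 over the 18 libraries, with a largest value of 0.0837 inside the groups and 0.128 for the next pair. The limit of 0.1 was chosen after the values were seen. The counts of members 53 and 54 differed in 1 library only, at levels such as 9.49, 9.24 and 10.01 CPM in 12 somite controls and 23.0, 21.2 and 19.1 CPM with atRA. The group of 6 holds members 49, 50, 52, 53, 54 and 56, and members 43 and 44 are among the pairs. How reads shared by isoforms or gene copies were assigned is not given in the sources used here, so 65 IDs are not 65 independent transcripts. With a single member kept per group 52 profiles remain. Pairs just above the limit were kept apart, such as members 14 and 15 (SD 0.149) and members 18 and 19 (SD 0.165). The 52 profiles are therefore not known to be independent either. Of these, 42 were called higher and 10 lower between 80% epiboly and 12 somites in controls, where 44.3% and 39.9% of all tested transcripts were. Between 12 somites and 24 hpf 17 were called higher and 13 lower, where 32.3% and 26.7% were, and these counts are not read as particular to the members. The atRA difference became smaller for 29 and larger for 13 of the 52 between the first 2 stages (15.6% and 12.3% of all tested transcripts). It became smaller for 19 and larger for 4 between the later 2 (7.85% and 8.1%).

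Beside the transcripts that met the threshold at exactly 2 of the 3 stages, the members had the higher median levels with atRA. Transcripts above it at a single stage were not compared. The median atRA level of the members was 8.81, 32.6 and 29.4 CPM through the stages, against 4.66, 14.5 and 11.1 CPM for the 101 transcripts above the threshold at 80% epiboly and 12 somites only. In controls the medians were 1.06, 8.34 and 6.68 CPM for the members and 0.894, 5.13 and 9.45 CPM for the 101, so the members were lower at 24 hpf. The 55 transcripts above it at 12 somites and 24 hpf only had medians of 0.412, 6.48 and 12.4 CPM with atRA and of 0.121, 1.34 and 4.45 CPM in controls. The median d at 80% epiboly was 2.43 in the members and 1.51 in the 101, and at 12 somites it was 1.74 and 1.42. These are descriptions without a test, since the atRA levels and differences decided which transcripts fell into each set.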

How the data were processed

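RNA from whole zebrafish embryos was sequenced in 18 libraries. RNA was extracted with TRIsure, purified with Direct-zol columns and treated with TURBO DNase, per the labels' protocols. The deposited files hold raw counts per versioned Ensembl transcript ID, 1 file per library, with 5 summary lines that were left out of all sums and tests. The submitters' processing notes name STAR, HTSeq and the build GRCz10 (danRer10), without versions or roles. The strand setting and the rule for shared reads are not given in the sources used here. No gene name or sequence could be assigned, so the gene lists that had been written for this work were not tested.

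Groups were taken from the titles in the labels. CPM used the sum of transcript counts. For tests, transcripts were kept by filterByExpr, scaled by TMM and fitted by the quasi-likelihood test of edgeR 4.0.16 in R 4.3.3, over all transcripts passing the filter, with Benjamini-Hochberg adjustment and a call at an adjusted p under 0.05. The libraries of the groups compared entered each fit. All 65 members passed the filter in every comparison, many of them through the groups in which they were high. Fits were tested on simulated counts. DESeq2 1.42.0 was an alternative test. Standard errors are the log2 change divided by the square root of F. The members and lists were chosen with earlier results of these data known. With no gene names, 2 members were named by ID: those with the largest smallest d among members with at least 10 mean counts with atRA at every stage. The counts rest on reads without molecular identifiers, so the floor of 3 counts covers counting error only.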

Additional observations from a re-analysis of the deposited data

Results flagged for a closer look

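The size of the atRA difference changed between stages for many members, by a test of the change itself (edgeR interaction, adjusted p under 0.05). Between 80% epiboly and 12 somites it changed for 55 of 65 members, where 27.8% of all tested transcripts were called. Between 12 somites and 24 hpf it changed for 26, where 16% were called, and for 13 with replicate number as a block (5.09%). These tests reuse the libraries that chose the members. The members were chosen for a difference at every stage, so the shares over all transcripts are no measure for them. For the first 2 stages, 43 of 52 members were called with at least 10 counts in every library, where 10626 of 33066 transcripts were. With a single member kept per group of near-copies, 42 of 52 profiles were called. Among the members named by ID, the log2 difference of ENSDART00000076161.4 changed by -0.60 between the first 2 stages and by -1.05 between the later 2, and that of ENSDART00000066125.4 changed by -3.22 between the first 2. The onset of exposure differed between 80% epiboly and the later stages, and its part in these changes cannot be told apart from stage. With 3 libraries per group, single libraries were not tested as outliers.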

How the results depend on the processing

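The list held 23 members with d of at least 1.5 and 105 with d of at least 0.8. It held 95 with a pseudocount of 0.1, 57 with 1, 74 with TMM-scaled libraries, and 63 to 76 with a library left out. The number called higher with atRA at 24 hpf ran from 59 to 65 with a library left out and was 29 with replicate number as a block. Over all tested transcripts the share called higher ran from 0.633% to 9.77% and was 0.157% with the block. Between 12 somite and 24 hpf controls the 41 calls became 10 with an absolute log2 change of at least 1, 24 with an adjusted p under 0.01, and 26 to 47 with a library left out. Of all 43030 tested transcripts, 13916 were called with the former threshold and 18944 with the latter. With a library left out 48.3% to 71.3% of all tested transcripts were called. For the interaction of 12 somites and 24 hpf the 26 calls became 11, 16 and 21 to 40 under the same settings, and 13 with the replicate block. Of all 44034 tested transcripts, 2989 and 3175 were called under the 2 thresholds. The share called was 10.8% to 29.0% with a library left out and 5.09% with the block. The block left 38 calls between 12 somite and 24 hpf controls and 55 for the earlier interaction. Of all tested transcripts it left 59.8% and 27.8% called. The numbers were not taken as pairs: between same-numbered control and atRA libraries of 24 hpf, deviations correlated at 0.0766, -0.460 and -0.505, and the limit of 0.1 for every pair was met in no comparison. Across normalizations, filters and the DESeq2 test, the other counts of members stayed within 1.5 times of those reported. Counts over all transcripts could move further. Of all 41404 tested at 24 hpf, 1694 were called higher with atRA by edgeR and 2693 by the DESeq2 test. Of 220 values computed for the 2 transcripts named by ID under alternatives, 213 had the same sign and the same call, 3 became called and 2 no longer were. The other 2 changed sign: the uncalled log2 change of ENSDART00000066125.4 between 12 somite and 24 hpf controls, -0.03, was 0.00998 with at least 10 counts in every library and ran from -0.20 to 0.11 with a library left out, the latter without replicate 3 of the 24 hpf controls. Precision is least for the 13 members under 10 counts in an 80% epiboly control library. The causes of these shifts were not tested, apart from the stricter thresholds.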
